A study of Mus musculus with 9 samples.

Results

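C3, Cfp and Cd55 are 3 genes of the complement system, and their read counts were followed in all 9 kidney libraries of the study. They were chosen by name, as the rows for the Ensembl identifiers ENSMUSG00000024164 (C3), ENSMUSG00000001128 (Cfp) and ENSMUSG00000026399 (Cd55), and are 3 of 14052 genes in the count table. All 3 had enough reads to be among the 7020 genes tested. The study compared kidney tumours of mice that lack Vhl and Pbrm1 in the tubule with normal kidney cortex, by RNA sequencing of poly(A) RNA. The tumour group holds 5 tumour areas, L4, R2, R3, R4 and R5, of the genotype Vhl F/F;Pbrm1 F/F;Ksp-Cre on a mixed background of C57BL/6, BALB/c and 129. The normal group holds 4 areas of renal cortex of wild-type C57BL/6 mice, with the names L1, L2, R1 and R2. Mice of both groups were about 1 year old and ate a normal diet, and no treatment was given. The Ksp promoter, taken from the cadherin gene Cdh16, is active in tubule epithelium, so Cre acts there and other cells of the tissue keep both genes.

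The labels carry 1 number for each group, so each group may be areas of 1 animal. The p-values then measure the spread between areas, and genotype, tumour growth, strain and animal cannot be told apart. In bulk tissue, fewer cells of a type and less RNA per cell cannot be told apart either.

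Complement is a cascade of blood and tissue proteins that tags surfaces for uptake and can pierce membranes. C3 is its central component: the classical, lectin and alternative routes all meet in convertases that cleave C3. Its liver source supplies the blood, and kidney epithelium and phagocytes also make it. Cfp encodes properdin, which binds the C3 convertase of the alternative pathway and slows its decay, and which is made mainly by white blood cells. Cd55 encodes decay-accelerating factor, a lipid-anchored surface protein that takes convertases apart on the body's own cells. In rodents, Crry, the product of Cr1l, shares this task.

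The counted reads per library ran from 5246708 to 6645050 in tumour and from 5143527 to 8250261 in normal areas. Levels are given in CPM, read counts brought to a common library total, with the TMM factors by which edgeR corrects for library composition. Differences between groups come from edgeR's quasi-likelihood test, and a gene counts as called at a Benjamini-Hochberg adjusted p under 0.05 over all genes tested. The groups differed widely: 74.6% of the tested genes were called, 39.3% as higher and 35.3% as lower in tumour. Groups without overlap were also frequent, with 34.8% of the tested genes higher in every tumour area than in any normal area and 33% lower. Vhl, the first of the deleted genes, fell from 104 ± 4.69 CPM (SD, n = 4) to 60 ± 12 CPM (SD, n = 5), with an edgeR adjusted p of 0.000248. Its tumour areas lay between 45.1 and 75.7 CPM and its normal areas between 97.7 and 108. Pbrm1, the other, was at 136 ± 21.5 CPM (SD, n = 5) in tumour and 155 ± 10.1 CPM (SD, n = 4) in normal areas, with an edgeR adjusted p of 0.142. Its areas overlapped, from 106 to 162 CPM in tumour and from 141 to 164 in normal. Without tumour area L4 the difference for Pbrm1 passed the test, with an edgeR adjusted p of 0.0336. Counts over whole genes do not separate the deleted exons from the rest.

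C3 was about an order of magnitude higher in tumour than in normal cortex, in every area. Its level was 241 CPM in tumour area L4, 148 in R2, 136 in R3, 113 in R4 and 170 in R5. In the normal areas it was 14.7 CPM in L1, 13.9 in L2, 9.3 in R1 and 14.6 in R2. The lowest tumour area thus stood far above the highest normal area, and L4 stood highest among the tumours. These levels rest on 747 to 1731 reads per tumour library and 56 to 102 per normal library. The means were 162 ± 48.9 CPM (SD, n = 5) and 13.1 ± 2.57 CPM (SD, n = 4), a 12.4-fold difference. The log2 fold change was 3.63 ± 0.25 (SE), with an edgeR adjusted p of 5.81e-07. Over 18 other settings it lay between 3.35 and 3.93.

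Cfp was a rare transcript in normal cortex and was also higher in every tumour area. Its level was 7.93 CPM in tumour area L4, 5.37 in R2, 4.18 in R3, 3.49 in R4 and 7.15 in R5. In the normal areas it was 1.08 CPM in L1, 0.273 in L2, 0.166 in R1 and 0.607 in R2. The groups did not overlap, and L4 and R5 were the highest tumours. Behind the normal values are only 5, 2, 1 and 3 reads in the same order, against 23 to 57 reads per tumour library. Summed over each group and scaled for library size, the count ratio was 11.9, with an exact 95% interval of 6.48 to 24.2 that covers counting error only. The means were 5.62 ± 1.9 CPM (SD, n = 5) and 0.532 ± 0.412 CPM (SD, n = 4). The fitted log2 fold change was 3.48 ± 0.45 (SE), with an edgeR adjusted p of 5.1e-05. Without normal area L1, which has 5 of the 11 normal reads, it was 4.01.

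Cd55, the regulator, went the other way, and its change was much smaller. Its level was 34 CPM in tumour area L4, 17.3 in R2, 21.2 in R3, 20 in R4 and 25.7 in R5. In the normal areas it was 37.9 CPM in L1, 39.8 in L2, 37.5 in R1 and 38.7 in R2. The normal areas were nearly equal, and every tumour area lay below them, L4 by the least. The counts were 103 to 244 reads per tumour library and 175 to 292 per normal library. The means were 23.6 ± 6.52 CPM (SD, n = 5) and 38.5 ± 1.02 CPM (SD, n = 4). Cd55 was 1.62-fold lower in tumour, with a log2 fold change of -0.70 ± 0.17 (SE) and an edgeR adjusted p of 0.00363. This call depends on the scaling. With library size alone, the log2 fold change of Cd55 was -0.40 and its edgeR adjusted p 0.0819. That scaling raised the median log2 fold change of all tested genes from 0.06 to 0.35, a shift of 0.29. It also raised the share of calls that were higher in tumour from 52.7% to 68.9%. With TMM, C3 and Cfp are thus 2 of the 39.3% of tested genes called higher, and Cd55 is 1 of the 35.3% called lower.

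**Figure D1:**
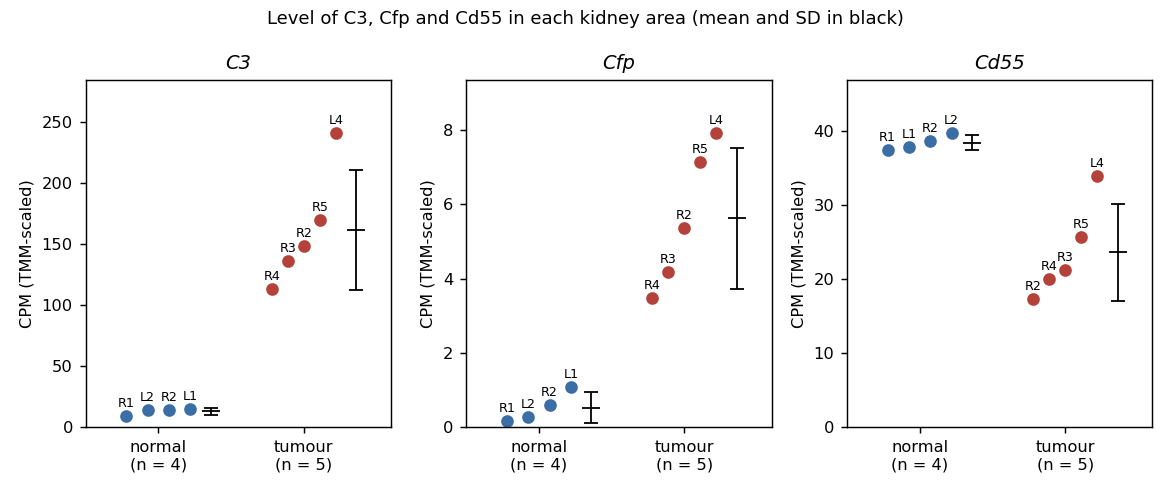
Level of C3, Cfp and Cd55 (y axis: TMM-scaled CPM, each panel from 0) in the 4 normal areas (blue) and 5 tumour areas (red). Each point is 1 library, drawn from low to high within its group, and the black bar gives the mean and SD. C3 and Cfp are higher in every tumour area than in any normal area, and Cd55 is lower.

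Cd55 has a partial copy, and how the counting treated reads that match both is not known. Cd55b aligned to 1053 of the 3133 bases of the longest Cd55 transcript at 93% identity, and it is listed at 0 in all 9 libraries. An antisense gene, Gm16083, overlaps exons of Cd55, and no source used here states that reads were counted by strand, so reads of the pair cannot be told apart. No copy of at least 90% identity over 200 bases was found for C3 or Cfp.

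The promoters of the 3 genes are shown because C3 and Cfp differ from Cd55 in direction. Each sequence runs from 250 bases before to 50 bases after the annotated start, 5′ to 3′ along the gene, as given by RefSeq for GRCm38.p6. All 3 genes lie on the minus strand, C3 at chr17:57228087-57228386, Cfp at chrX:20931506-20931805 and Cd55 at chr1:130462695-130462994. Capitals mark every match to 1 of 9 short motifs, searched on both strands.
C3 promoter: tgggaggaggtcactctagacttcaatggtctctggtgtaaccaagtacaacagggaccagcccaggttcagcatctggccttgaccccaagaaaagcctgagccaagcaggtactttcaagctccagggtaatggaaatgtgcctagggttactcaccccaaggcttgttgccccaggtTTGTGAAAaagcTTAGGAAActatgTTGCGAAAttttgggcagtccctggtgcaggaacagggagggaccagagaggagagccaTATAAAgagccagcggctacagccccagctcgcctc
Cfp promoter: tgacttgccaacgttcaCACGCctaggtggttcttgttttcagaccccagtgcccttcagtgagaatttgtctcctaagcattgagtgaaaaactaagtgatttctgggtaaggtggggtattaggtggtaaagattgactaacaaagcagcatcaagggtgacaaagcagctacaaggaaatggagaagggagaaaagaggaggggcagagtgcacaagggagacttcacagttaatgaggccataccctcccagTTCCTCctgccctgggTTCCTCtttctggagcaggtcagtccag
Cd55 promoter: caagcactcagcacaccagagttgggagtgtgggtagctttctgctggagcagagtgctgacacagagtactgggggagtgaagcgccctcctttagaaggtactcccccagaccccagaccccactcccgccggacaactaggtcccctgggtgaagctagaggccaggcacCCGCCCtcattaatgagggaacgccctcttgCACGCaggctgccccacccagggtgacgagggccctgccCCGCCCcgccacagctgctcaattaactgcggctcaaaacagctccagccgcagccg
The capitals in the C3 promoter are TTGTGAAA, TTAGGAAA and TTGCGAAA, matches to the C/EBP pattern TTNNGNAA that start at -70, -58 and -45, and a TATAAA box at 15, where the start base is 1. The match at -45 reads as the pattern on both strands. In the Cfp promoter the capitals are TTCCTC, the reverse complement of GAGGAA, the PU.1 core, at 7 and 23, and CACGC, the reverse complement of GCGTG, a form of the hypoxia response core, at -233. The Cd55 promoter holds CCGCCC, the reverse complement of the GC box GGGCGG, at -77 and -7 and CACGC, the reverse complement of GCGTG, at -46. Such short words are common: among all 32851 RefSeq promoters of this length, 40.7% hold TTNNGNAA, 28.3% GAGGAA, 32.4% GCGTG, 35.7% GGGCGG and 13.6% TATAAA. None of the 3 windows holds ACGTG (19.6% of promoters), the STAT pattern TTCNNNGAA (8.3%), the NF-kB pattern (5.56%) or the interferon response pattern (3.44%). A match describes letters and not a bound site, and nothing follows for a factor from letters that are not in these windows.

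Per kilobase of exon, the order of the 3 genes changed between the groups. In normal cortex Cd55 was highest, at 7.93 ± 0.21 CPM per kilobase (SD, n = 4), then C3 at 2.55 ± 0.5 and Cfp at 0.306 ± 0.237. In tumour C3 was highest, at 31.4 ± 9.51 CPM per kilobase (SD, n = 5), then Cd55 at 4.87 ± 1.34 and Cfp at 3.24 ± 1.09. The ranges of the areas show which neighbours in this order are apart. In normal areas the 3 genes did not overlap, from 7.74 to 8.21 for Cd55, 1.81 to 2.86 for C3 and 0.0957 to 0.623 CPM per kilobase for Cfp. In tumour areas C3 (22 to 46.9 CPM per kilobase) stood apart, while Cd55 (3.56 to 7) and Cfp (2.01 to 4.57) overlapped. Lengths of coding sequence alone gave the same order of means, with Cd55 at 16 CPM per coding kilobase in tumour and 26 in normal, since most of the Cd55 exon length lies outside the coding sequence. Which neighbours overlap in tumour depends on this choice: per coding kilobase, C3 (22.7 to 48.3 CPM) and Cd55 (11.7 to 23) overlapped, and Cfp (2.5 to 5.7) stood apart. Among the 20 complement genes tested, C3 ranked 9 in normal and 5 in tumour by level per kilobase of exon, Cfp 16 and 14, and Cd55 4 and 11. Among 7015 tested genes with a length, C3 stood at percentile 31.7 in normal and 78.1 in tumour, Cfp at 6.23 and 31.8, and Cd55 at 51.4 and 38.8.

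Ratios of 2 genes within a library do not depend on the scaling between libraries. There were 7.09 reads of C3 per read of Cd55 in tumour area L4, 8.57 in R2, 6.38 in R3, 5.65 in R4 and 6.62 in R5. The normal areas had 0.389 in L1, 0.349 in L2, 0.248 in R1 and 0.377 in R2. The tumour areas thus lay close together and far above the normal areas, with medians of 6.62 and 0.363 reads of C3 per read of Cd55. Against Cr1l, the other regulator that was lower, the C3 ratio was 6.39 to 14 in tumour areas and 0.313 to 0.45 in normal ones. Against C1ra, a protease of the first complement complex, it was 1.04 to 1.23 in tumour areas and 0.19 to 0.289 in normal ones. C3 was thus higher relative to the reads counted for C1ra in every tumour area, whatever the scaling. C1ra has a close copy, C1rb, and how the counting divided their reads is uncertain. Against Dcn, a fibroblast marker, the ratio of C3 was 0.235 to 0.366 in tumour areas and 0.108 to 0.173 in normal ones. Against Lyz2, the lysozyme of macrophages, the ratio of C3 was 0.133 to 0.161 in tumour areas and 0.151 to 0.219 in normal ones. These ranges overlap, but only through normal area R1. The other normal areas, at 0.192 in L1, 0.192 in L2 and 0.219 in R2, lay above every tumour area. The ratio of Cd55 to Cr1l likewise overlapped, at 1.01 to 1.97 in tumour areas and 1.16 to 1.26 in normal ones, with L4 and R5 at the top.

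**Figure D2:**
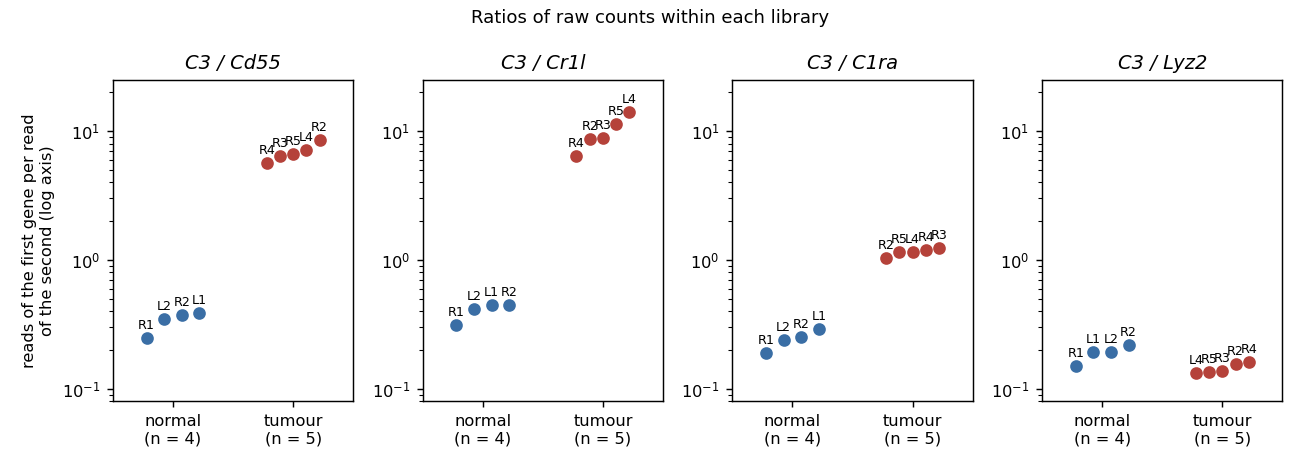
Reads of C3 per read of Cd55, Cr1l, C1ra and Lyz2 within each library (y axis: ratio of raw counts, log scale) in normal (blue) and tumour (red) areas. Points are single libraries, drawn from low to high. The C3 ratio to Cd55, Cr1l and C1ra is higher in every tumour area, and the C3 ratio to Lyz2 overlaps between the groups through normal area R1 only.

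The other complement genes were taken from a list by role. Of 56 listed genes, the 3 included, 37 are in the table, 28 have at least 1 read and 20 were tested. Of these 20, 15 were higher, 2 lower and 3 not called, with a median log2 fold change of 1.86 against 0.06 over all tested genes. Without C3, Cfp and Cd55, 13 of 17 were higher and 1 lower, with a median of 1.85. The share higher is to be read beside the 39.3% of all tested genes. It has a further limit, since the filter on low counts keeps a gene that is high in 1 group. C1rb, C1s2, Cfp and Itgam, among others, passed only through their tumour reads, so their direction was largely set by the filter. Genes as rare in normal areas but not clearly raised, such as C4bp and Cr2, were not tested. The counts by role below share this limit. Genes such as C1qa, C1qb, C1qc, Hc, C3ar1 and C5ar1 were not analysed here. In all, 9 listed genes, among them Cfb, the protease of the alternative convertase, are listed at 0 in every library. Of all genes counted, 28.4% have no read in any library, so a listed 0 does not show that a gene is silent.

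At the start of the classical and lectin routes, all 5 tested genes were higher in tumour. C4b, a component of the classical C3 convertase, rose from 7.22 ± 0.925 CPM (SD, n = 4) to 32.9 ± 11.4 CPM (SD, n = 5), an edgeR log2 fold change of 2.19. C1ra rose from 54 ± 4.76 CPM (SD, n = 4) to 141 ± 43.4 CPM (SD, n = 5), with a log2 fold change of 1.38 and an edgeR adjusted p of 0.000128. Masp2, the protease that starts the lectin route, rose from 2.34 ± 0.676 to 6.61 ± 2.31 CPM. C1rb and C1s2 were all but missing from normal cortex. C1rb had 2 reads over the 4 normal libraries, and its scaled count ratio was 93.5, with an exact 95% interval of 25.6 to 776. With 1 area left out, this ratio ran from 68.9, without normal area R1, to 149, without normal area L1, which holds 1 of these 2 reads. C1s2 had a ratio of 28.7, with an interval of 12.1 to 89.3. Each of these proteases has a close copy, C1ra and C1rb at 97.9% identity over 2431 bases and C1s1 and C1s2 at 95.9% over 2643, so how the counting divided their reads is uncertain. The same holds for C4b, which matches C4a at 95.9% over 5378 bases.

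In the alternative pathway, Cfd stood beside C3 and Cfp. It encodes factor D, the protease that cuts factor B and that fat cells secrete in large amounts. Cfd reached 456 CPM in L4, while its other tumour values ran from 1.17 to 95.9 CPM, against 1.79 ± 1.4 CPM (SD, n = 4) in normal areas. The groups overlapped. The log2 fold change was 5.85 ± 1.84 (SE), with an edgeR adjusted p of 0.0143. Without L4 it was 3.85 (adjusted p 0.0214), and without L4 and R5 it was 1.54 (adjusted p 0.131). With limma-voom in place of edgeR, Cfd was not called either, at an adjusted p of 0.349. The summed fat markers, a list that includes Cfd, were 746 CPM in L4, 163 in R5 and 6.71 to 28.2 in the other tumour areas, and their part in the result was not tested.

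Of the terminal pathway, which builds the membrane pore, both tested genes were higher. C6 rose from 1.42 ± 0.433 CPM (SD, n = 4) to 5.38 ± 1.79 CPM (SD, n = 5). C7 rose far less, from 17.3 ± 1.04 to 24.8 ± 5.28 CPM, with a log2 fold change of 0.51 and an edgeR adjusted p of 0.0114.

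Of the soluble regulators, 2 of 3 tested genes were higher. Serping1, the inhibitor of the C1 proteases, rose from 40 ± 3.36 CPM (SD, n = 4) to 125 ± 32 CPM (SD, n = 5), with a log2 fold change of 1.65 and an edgeR adjusted p of 1.22e-05. Cfi, the protease that inactivates C3b, rose from 7.79 ± 1.79 to 28.4 ± 11.4 CPM, with a log2 fold change of 1.87. Clu, clusterin, which also holds back the terminal complex, was not called, at 444 ± 25.9 CPM in normal and 375 ± 85.6 CPM in tumour areas. It passed without tumour area R3, at a log2 fold change of -0.34 and an edgeR adjusted p of 0.0427.

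Of the 4 tested membrane regulators, 2 were lower and none was higher, beside 35.3% of all tested genes called lower and 39.3% called higher; with so few genes this does not set the group apart from the rest. Beside Cd55, Cr1l was lower, at 17.3 CPM in tumour area L4, 17.1 in R2, 15.4 in R3, 17.7 in R4 and 14.9 in R5. Its normal areas were 32.7 CPM in L1, 33.4 in L2, 29.7 in R1 and 32.4 in R2. Unlike Cd55, Cr1l was nearly level over the tumour areas, L4 included. Its means were 16.5 ± 1.23 CPM (SD, n = 5) and 32.1 ± 1.61 CPM (SD, n = 4), a log2 fold change of -0.96 ± 0.09 (SE) with an edgeR adjusted p of 3.7e-06. With library size alone it was -0.67 and still called. Cd46, a cofactor for C3b cleavage, was at 2.46 ± 0.727 CPM (SD, n = 5) in tumour and 2.29 ± 0.959 CPM (SD, n = 4) in normal areas, with an edgeR adjusted p of 0.807. Susd4 was at 23.1 ± 6.42 CPM (SD, n = 5) and 22.1 ± 1.49 CPM (SD, n = 4), with an edgeR adjusted p of 0.781.

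Receptors for C3 fragments were higher in all 3 tested cases, the chains of complement receptors 3 and 4. Itgax rose from 6.12 ± 0.43 CPM (SD, n = 4) to 49.7 ± 13.9 CPM (SD, n = 5), a log2 fold change of 3.02. Itgb2, the shared chain, rose from 1.32 ± 0.495 to 14.3 ± 4.16 CPM, a log2 fold change of 3.43. Itgam rose from 0.721 ± 0.145 to 2.56 ± 1.23 CPM, with an edgeR adjusted p of 0.00303. Itgam shares 3453 bases at 99.9% identity with the predicted gene Gm49368, so its count is uncertain. These chains are carried by macrophages and other white blood cells, and Itgax is also in the macrophage marker list used here.

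**Figure D3:**
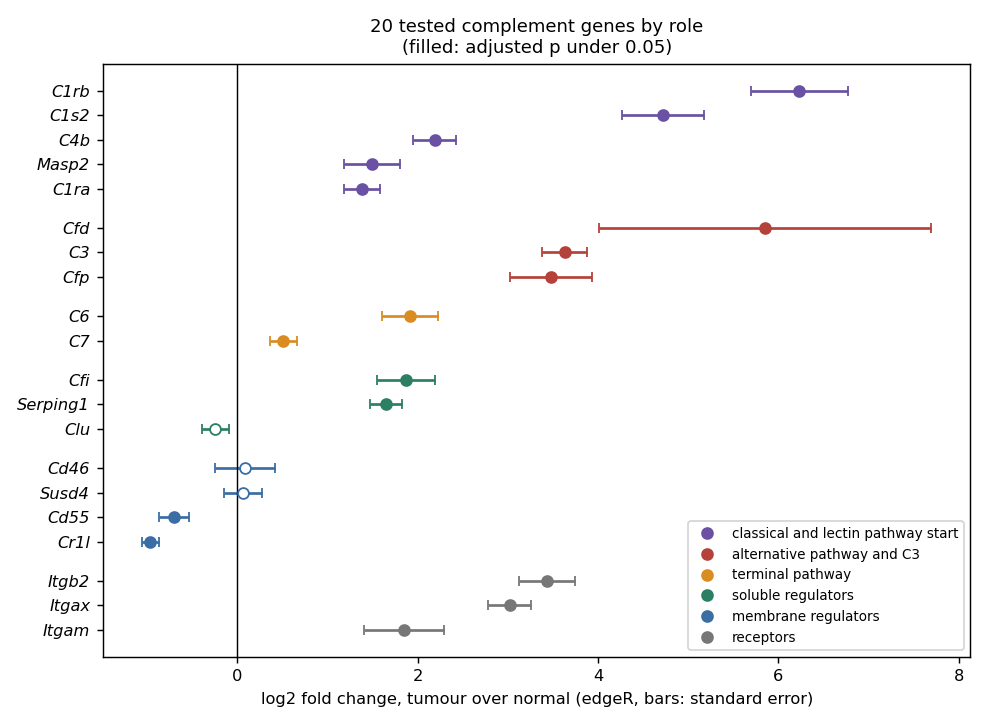
Log2 fold change, tumour over normal (x axis), of the 20 tested complement genes, grouped and coloured by role. Bars are edgeR standard errors, and filled points have an adjusted p under 0.05. All groups but the membrane regulators lie mainly right of 0, and Cd55 and Cr1l lie left of it.

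**Figure D4:**
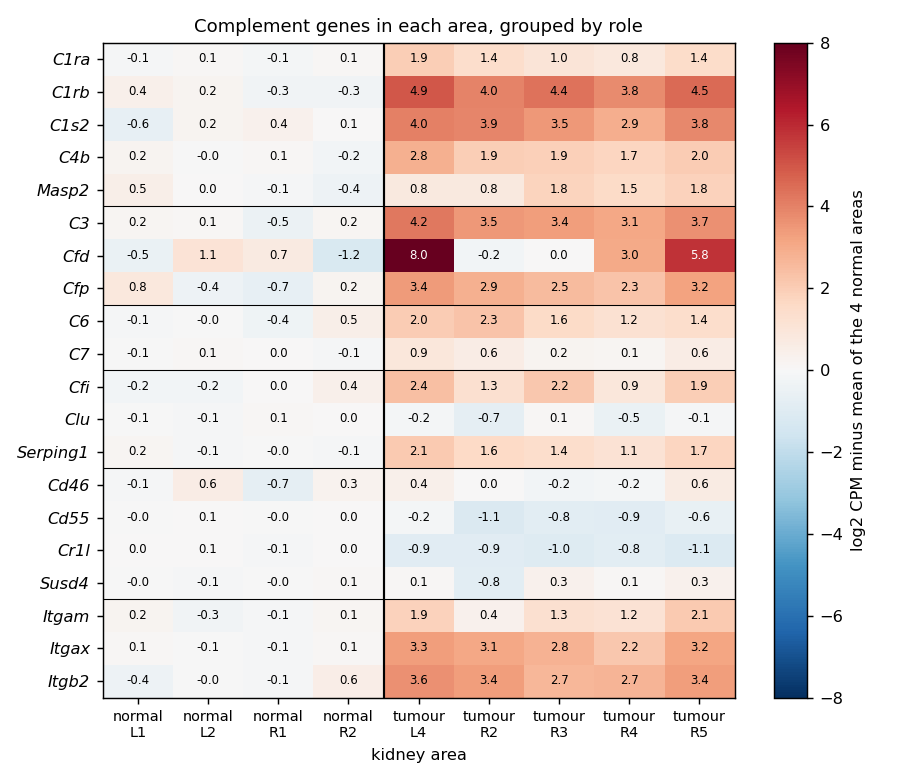
Log2 CPM of the 20 tested complement genes in each area minus the mean of the 4 normal areas (prior count 2), with the value printed in each cell. Rows are genes by role, columns are areas, and the vertical line parts normal from tumour. C3 and Cfp are raised in each tumour column, Cr1l is lower in each, and Cd55 is nearest to normal in L4.

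A list of 11 genes that induce C3 in other settings, cytokines and their factors, had 6 in the table and 3 tested. All 3 were higher, beside 39.3% of all tested genes, and so few genes do not set the list apart. Il6, Tnf, Il17a, Cebpb and Cebpd were not analysed here, and Nfkb1 had only 1 read, in tumour area R5. Il1b, the inflammatory cytokine, rose from 0.742 ± 0.283 CPM (SD, n = 4) to 24.9 ± 6.25 CPM (SD, n = 5), a log2 fold change of 5.03. With 17 reads over the normal areas, Il1b passed the filter only through its tumour reads. Nfkb2, a subunit of NF-kB, rose from 11.3 ± 1.79 to 57.9 ± 10.4 CPM, a log2 fold change of 2.35. Rela, another subunit, rose from 120 ± 3.78 to 228 ± 17 CPM, a log2 fold change of 0.92 with an edgeR adjusted p of 5.7e-07. Their part in the level of C3 was not tested.

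Within the tumour group the 3 genes did not move together in every area. The highest area exceeded the lowest 2.13 times for C3, 2.28 times for Cfp and 1.97 times for Cd55, against a median of 1.43 over all tested genes and 1.19 for Cr1l. L4 was the highest tumour area for C3, Cfp and Cd55, and for 13 of the 20 tested complement genes, against 31.6% of all tested genes. R4 was the lowest for C3 and Cfp, while R2 was the lowest for Cd55. Without L4 and R5, the log2 fold changes of C3, Cfp and Cd55 were 3.35, 3.12 and -0.97, so all 3 kept their direction.

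Markers of white blood cells and fibroblasts moved with C3 and Cfp. The counts of called markers are to be read beside all tested genes, of which 39.3% were called higher and 35.3% lower. The summed macrophage and dendritic cell markers were 2465 CPM in tumour area L4, 1450 in R2, 1418 in R3, 1039 in R4 and 1769 in R5, against 139 to 164 in normal areas. All 9 listed genes in the table were tested, and 8 were higher. T and NK cell markers ran from 110 to 268 CPM in tumour and from 8.7 to 12.5 in normal areas, with 5 of 5 tested genes higher and Cd2 and Lck listed at 0. B and plasma cell markers ran from 312 to 843 against 2.83 to 5.19 CPM, with 4 of 4 higher. The limit of the filter on low counts holds here too. Ms4a1, with 18 reads over the normal areas, passed only through its tumour reads, so its direction was largely set by the filter. These 3 lists were highest in L4, as C3 and Cfp were. This is not particular to them, since the fibroblast, endothelial, podocyte, fat and urothelial lists and Cd55 were also highest in L4. Fibroblast markers ran from 868 to 2703 against 212 to 231 CPM, with 4 of 6 higher and 2 lower. For neutrophils, a known source of properdin, 6 of 10 listed markers are in the table, none had enough reads to be tested, and Mpo and Camp are listed at 0. The neutrophil markers in the table summed to 0.761 to 1.81 CPM over the tumour areas and 0.405 to 1.33 CPM over the normal ones, and Ly6g, S100a8, S100a9 and Cxcr2 were not analysed here. Of the liver markers, 1 of 4 tested genes, Ttr, was higher and 3 were lower, and Apoa2 is listed at 0. Their sum was nonetheless higher in tumour, at 148 to 383 CPM against 43.7 to 54.7 in normal areas. Ttr made up most of it, at 287 ± 91.4 CPM (SD, n = 5) in tumour and 35.8 ± 5.04 CPM (SD, n = 4) in normal areas.

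Markers of kidney cells moved with Cd55. Their counts of lower genes are to be read beside the 35.3% of all tested genes called lower. The proximal tubule markers, summed, were 7955 CPM in tumour area L4, 10294 in R2, 13704 in R3, 15315 in R4 and 12199 in R5, against 29644 to 31624 in normal areas, and 8 of 8 were lower. So the normal areas, labelled as cortex, and the tumour areas, which carry no such label, all held reads of these tubule genes, at lower levels in tumour. Podocyte markers ran from 603 to 786 against 1578 to 1637 CPM, with 4 of 4 tested genes lower. Endothelial markers ran from 325 to 409 against 495 to 517 CPM, with 3 of 4 lower. Distal tubule and collecting duct markers ran from 1527 to 6867 against 10682 to 10919 CPM, with 6 of 7 lower and Scnn1a listed at 0. Within the tumours Cd55 and the proximal tubule markers were ordered differently, since L4 was highest for Cd55 and lowest for the tubule sum. L4 also held 1077 CPM of urothelial and stratified epithelium markers, against 201 in R5, 21.9 to 62.4 in the other tumour areas and 0.332 to 3.68 in normal areas. The part of these cells in the levels of C3, Cfp and Cd55 was not tested.

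**Figure D5:**
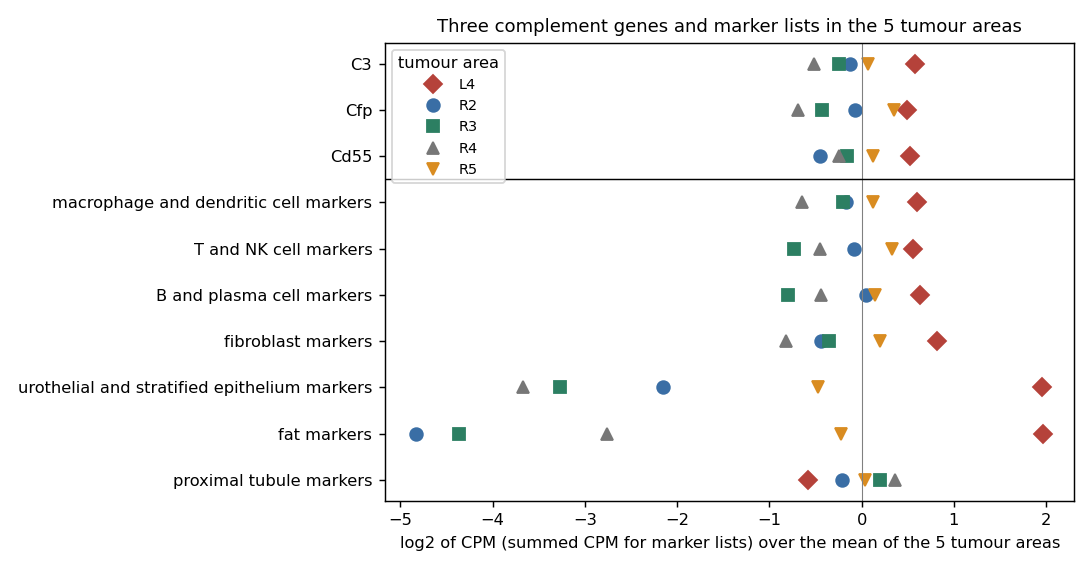
Spread over the 5 tumour areas of C3, Cfp and Cd55 (above the line) and of summed marker lists (below it). The x axis is the log2 of CPM over the mean of the 5 areas, and each symbol is 1 area. L4 is the highest in every row but the proximal tubule markers, where it is the lowest.

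The genes whose pattern over the 9 libraries was most like each of the 3 were found by the root mean square difference of log2 CPM after centring each gene. For C3 these were Il2rg (0.134), Fermt3 (0.15), Pld4 (0.166), Fgr (0.177) and Itgb7 (0.191), with log2 fold changes of 3.55, 3.59, 3.88, 4.01 and 3.59. Genes picked this way have a fold change near that of the member by construction, so the likeness is no separate result. Il2rg encodes the common chain of several interleukin receptors, Fermt3 the integrin adaptor of blood cells and Itgb7 an integrin chain of lymphocytes. For Cfp they were Acsbg1 (0.185), Il18r1 (0.214), Igsf23 (0.241), Fbn2 (0.247) and Runx1 (0.249). Only Il18r1 and Fbn2 of these were also among the 5 nearest with a prior count of 0.5 in place of 2. For Cd55 they were Slc27a1 (0.0799), Pdk4 (0.08), Dgat2 (0.0824), Vhl (0.0914) and Setd7 (0.097). Slc27a1 encodes a fatty acid transporter, Pdk4 a kinase that holds back pyruvate use and Dgat2 an enzyme of triglyceride synthesis. Slc27a1, Pdk4, Dgat2 and Setd7 also lost their call with library size alone, and Vhl did not. With a prior count of 0.5, Fgr was no longer among the 5 nearest to C3, nor Setd7 among those to Cd55.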

How the data were processed

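RNA of 5 tumour and 4 normal kidney areas was selected for poly(A), made into TruSeq libraries and sequenced from both ends on an Illumina HiSeq, per the labels. As tools and build, the submitters' processing notes list mm9, STAR 2.3, HTSeq and edgeR, without their roles. Annotation, strandedness and filters: not given in the sources used for this text. The values deposited are unnormalized read counts of each gene in each library, all of them whole. Of 14052 identifiers, 14026 matched a mouse symbol. A count of 3, the limit that a 0 allows, is 0.409 to 0.649 CPM. Intervals and this limit cover counting error only. No pair of libraries agreed within sampling noise: chi-square per degree of freedom was 1.47 to 2.36 between normal and 4.52 to 55.6 between tumour areas.

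Counts were fitted with edgeR 4.0.16 (R 4.3.3): filterByExpr by group (minimum count 10, total 15), TMM (factors tumour 1.04 to 1.17, normal 0.89 to 0.899), the group as the only term, and Benjamini-Hochberg adjustment over 7020 genes. The common biological coefficient of variation was 0.152. Scaling by TMM assumes that most genes do not differ, while 74.6% were called. The members and gene lists were chosen with earlier results of these data known. Named genes are the members, Vhl, Pbrm1, genes of the complement and inducer lists with a read, the 5 genes nearest each member, and up to 2 genes per marker list. Other settings tried were scaling by library size alone, RLE or upper quartiles, no filter, 1 CPM in 4 libraries, DESeq2 1.42.0, limma-voom (limma 3.58.1), the area letter as a covariate, no tumour areas L4 and R5, and each area left out. On simulated data, the fit called 54% of genes with a 1.5-fold change, 80% at 2-fold and 100% at 4-fold, and 4.14% of calls were of unchanged genes. In that simulation 6725 of 6920 genes were unchanged, and the changes were drawn equally up and down. The assumption of TMM was thus met there, and these shares do not carry over to data with 74.6% of genes called. Copies were found with BLAST 2.17.0. A later annotation gave lengths, so mm9 coordinates are not given.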

Additional observations from a re-analysis of the deposited data

Results flagged for a closer look

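Among 35 genes in 2 groups each, 70 sets of areas were searched for 1 area far from the rest of its group, and 4 were found. Chance alone marks about 1 set in 20. C3 in normal area R1 was 9.3 CPM, below 13.9 to 14.7 in the other normal areas. C4b in tumour area L4 was 52.9 CPM, above 24.5 to 30.3 in the other tumour areas. Cfd in tumour area L4 was 456 CPM, above 1.17 to 95.9. Susd4 in tumour area R2 was 12.2 CPM, below 23.5 to 28.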

How the results depend on the processing

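C3 (log2 fold change 3.35 to 3.93, adjusted p 6.74e-51 to 8.49e-06) and Cfp (3.12 to 4.01, adjusted p 8.82e-10 to 0.000409) kept their direction and call under all 18 alternatives, and Cd55 (-0.97 to -0.40) under 17. With library size alone Cd55 was -0.40 (adjusted p 0.0819) and 1 complement gene, not 2, was lower. The count of complement genes higher lay between 13 and 16, the count lower was 3 without tumour area R3, and calls over all genes lay between 4921 and 5731. Without tumour areas L4 and R5 the fat marker Plin4 reversed, from 1.30 (adjusted p 0.226) to -1.14 (adjusted p 0.0213), and Cfd was 1.54 (adjusted p 0.131); with limma-voom Cfd was 3.58 (adjusted p 0.349). The cause was not tested. Of 1021 values of 57 single genes, 1003 kept direction and side of the threshold. No paired analysis was possible because the groups come from mice of different genotype, and the shared area name R2 does not pair them. Depth limits Cfp, with 11 reads over the normal group. Cfp also passed the filters on low counts only through its tumour reads, which limits its calls under every setting that filters.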

Other observations

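Complement genes with too few reads for the test are given as count ratios of tumour over normal, scaled for library size, with exact 95% intervals of counting error. Fcna, a ficolin of the lectin route, had a ratio of 7.54 (3.48 to 19.4). Tumour area L4 held 44 of its 74 tumour reads, and without L4 the ratio was 3.94 (1.7 to 10.6). C4bp, a soluble regulator, had 2.14 (0.74 to 7.53), and Cr2, complement receptor 2 of B cells, had 1.62 (0.77 to 3.65), and both intervals include equal levels. Of the C3 inducers, Ifng had 7.14 (2.58 to 27.5). With 1 area left out, its ratio ran from 5.26, without normal area R1, to 11.4, without normal area L1. Il1a was at least 6.42-fold higher, against a limit of 3 counts over the normal group. Tumour areas L4 and R2 held 12 and 8 of its 27 reads. With 1 area left out, this bound ran from 4.37, without normal area L2, to 7.48, without tumour area R5. Leaving out areas was added for these ratios after seeing the data. The values compare summed libraries and carry no test between areas.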
